A study of Homo sapiens with 6 samples.

Results

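The 8 genes described here are ACO1, which encodes iron regulatory protein 1 (IRP1), and 7 genes that it regulates or works beside. IREB2 encodes iron regulatory protein 2 (IRP2), TFRC, SLC11A2 and SLC39A14 encode iron importers, FTH1 and FTL encode the heavy and light chains of ferritin, and SLC40A1 encodes ferroportin, the iron exporter. They were taken by symbol from the 29889 genes of the count table, and all 8 passed the filter on low counts that left 15847 genes for testing. ACO1 was chosen by its higher level in CELF6-OE in these same libraries, and the other 7 were added for their relation to it. The differences of the 8 genes are therefore given as fold changes with standard errors, as a description and without a p-value.

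The libraries came from A549, a human lung adenocarcinoma cell line that grows as an epithelial sheet. Cells were lipofected with the pIRES-hrGFP-1a plasmid carrying CELF6 (CELF6-OE, n = 3) or with the empty plasmid (Control, n = 3), and all were collected 48 h later. CELF6 is an RNA-binding protein of the CUGBP and Elav-like family. Every library thus comes from a transiently transfected culture, and no sorting or selection of transfected cells is described. In RNA from whole cultures, fewer cells of a type and less RNA per cell cannot be told apart.

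Each CELF6-OE library held 33748328 to 35413404 counts in total, and each Control library 36422617 to 37920700. CELF6 had 18646, 20789 and 11571 counts in the 3 CELF6-OE libraries and 0 in every Control library, and plasmid and endogenous transcripts cannot be told apart in these counts. Of the 6 epithelial markers, 5 had an FPKM (fragments on a gene, scaled by its length and by the mapped fragments of the library) of 1 or more in every library. The marker list summed to 5041 to 5793 FPKM across CELF6-OE libraries and 6177 to 7029 across Control libraries. By ratio CDH1 (E-cadherin) differed most, at a mean of 3.58 in CELF6-OE against 10.8 in Control. In FPKM, KRT8 (1864 against 2530) and KRT18 (1862 against 2334) differed most, while KRT7 (1674 against 1736) and EPCAM overlapped between the groups. Leukocyte and macrophage markers summed to 3.64 to 4.93 FPKM across CELF6-OE libraries and 3.64 to 4.30 across Control libraries, mostly CD14, with PTPRC and CD163 at or near 0. Erythroid markers summed to at most 0.260, and fibroblast and endothelial markers to at most 0.460. What part the lower epithelial sum had in the iron genes was not tested.

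Iron balance in animal cells is set largely after transcription. IRP1 and IRP2 bind a short hairpin, the iron-responsive element (IRE), when iron is scarce. Binding near the 5′ end of ferritin and ferroportin mRNAs blocks their translation, while binding in the 3′ untranslated region (3′UTR) of TFRC mRNA protects it from decay. When iron is plentiful, IRP1 takes up an iron-sulfur cluster and works instead as cytosolic aconitase, which turns citrate into isocitrate, and IRP2 is degraded. RNA-seq measures only the mRNA levels and reports neither IRE binding nor ferritin protein.

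The hairpins are printed here because the IRPs bind hairpins of this kind. They are given for those of the 8 genes with a match, and the choice of genes did not use their sequence. GENCODE v44 coding transcripts on GRCh38 were searched on the transcript strand for C, any 5 bases, CAGTGN and then 5 bases able to pair with the first 5. In FTH1, FTL, SLC40A1 and TFRC all 5 pairs were present, and each line holds 29 bases, 5′ to 3′, with T for U. Capitals mark the bulged C and the 6-base loop.
FTH1 5′UTR: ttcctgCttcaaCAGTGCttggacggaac
FTL 5′UTR: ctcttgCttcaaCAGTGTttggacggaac
SLC40A1 5′UTR: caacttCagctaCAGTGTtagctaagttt
TFRC 3′UTR site A: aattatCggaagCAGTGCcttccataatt
TFRC 3′UTR site B: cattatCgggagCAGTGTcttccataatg
TFRC 3′UTR site C: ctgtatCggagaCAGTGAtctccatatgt
TFRC 3′UTR site D: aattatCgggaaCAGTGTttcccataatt

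The FTH1 hairpin lay at chr11:61967574-61967602 (minus strand), the FTL hairpin at chr19:48965335-48965363 (plus strand) and the SLC40A1 hairpin at chr2:189580661-189580689 (minus strand). In the order of the mRNA, TFRC sites A to D lay at chr3:196050979-196051007, chr3:196050575-196050603, chr3:196050510-196050538 and chr3:196050463-196050491 (minus strand). The letters label only the matches found here, and a hairpin outside the search pattern would be missed. The FTH1 hairpin was in 7 of 8 coding transcripts of its gene, the FTL hairpin in the single coding transcript of its gene, the SLC40A1 hairpin in 1 of 5 and the TFRC hairpins in 10 of 11. SLC11A2 and IREB2 matched only when 1 base inside the 3′ side of the stem was allowed to stay unpaired.
SLC11A2 3′UTR: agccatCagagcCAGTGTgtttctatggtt
IREB2 3′UTR: catttgCtttcaCAGTGAtgagtgagagga

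These matches lay at chr12:50988268-50988297 (minus strand, 4 of 17 coding transcripts of SLC11A2) and chr15:78500969-78500998 (plus strand, 1 of 4 of IREB2). SLC11A2 is known to make mRNA forms with and without an IRE, which counts per gene do not separate. ACO1 and SLC39A14 had no match of either kind. Among 19702 coding genes, 39 (0.198%) had a 5-pair match in a 5′UTR and 142 (0.721%) in a 3′UTR, and 478 (2.43%) had any match in either UTR once the unpaired base was allowed. A match is a description of letters and does not show that a protein binds there.

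ACO1 (ENSG00000122729.18, GRCh38 chr9:32384603-32454769, plus strand) was the only one of the 8 genes whose libraries separated fully between the groups. The FPKM values of 37.9% of all genes tested separated so, and ACO1 was chosen for its higher level. In the order of replicates 1 to 3, FPKM was 3.81, 3.9 and 2.73 in CELF6-OE and 1.57, 1.5 and 1.49 in Control, the order used for every gene that follows. The means were 3.48 ± 0.651 and 1.52 ± 0.0436 (SD, n = 3 each), and the lowest CELF6-OE library was 1.74 times the highest Control library. Counts were 1046, 1091 and 728 against 450, 448 and 444, and the fold change was 2.24, with a log2 fold change of 1.16 (SE 0.126). The Control libraries were nearly level and the CELF6-OE libraries were not, since replicate 3 lay well below the other two. CELF6 itself was lower in that library. Replicate 3 held 61.0% of the mean CELF6 FPKM of replicates 1 and 2, and 70.8% of their mean ACO1 FPKM. Whether the CELF6 level had a part in the ACO1 level was not tested.

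IREB2 (ENSG00000136381.12, chr15:78437431-78501453, plus strand), the paralog of ACO1, had FPKM values of 4.25, 4.48 and 4.51 in CELF6-OE and 4.57, 3.80 and 2.92 in Control. The groups overlapped, because Control replicate 1 was the highest of the 6 libraries and Control replicate 3 the lowest. The means were 4.41 ± 0.142 and 3.76 ± 0.826 (SD, n = 3 each), with a log2 fold change of 0.20 (SE 0.116). It was 0.33 (SE 0.090) without Control replicate 1 and 0.07 (SE 0.074) without Control replicate 3. IREB2 was the more abundant of the IRP mRNAs in every library, and the FPKM of ACO1 relative to that of IREB2 was 0.896, 0.871 and 0.605 in CELF6-OE and 0.344, 0.395 and 0.510 in Control. These ratios did not overlap, but they contain the ACO1 values that chose the gene.

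Among the importers, TFRC (ENSG00000072274.12, chr3:196012511-196082153, minus strand), the transferrin receptor, was the most abundant. Its FPKM was 30.5, 33.1 and 31.9 in CELF6-OE and 33.1, 30.0 and 25.9 in Control, so the groups overlapped. The means were 31.8 ± 1.27 and 29.7 ± 3.61 (SD, n = 3 each), with a log2 fold change of 0.07 (SE 0.074). SLC11A2 (ENSG00000110911.14, chr12:50979401-51028566, minus strand), or DMT1, moves ferrous iron across the apical membrane and out of endosomes. It had 4.06, 4.24 and 4.36 in CELF6-OE and 4.75, 4.09 and 4.09 in Control, with overlap. The means were 4.22 ± 0.151 and 4.31 ± 0.381 (SD, n = 3 each), with a log2 fold change of -0.06 (SE 0.073). SLC39A14 (ENSG00000104635.13), or ZIP14, imports iron that is not bound to transferrin, along with zinc and manganese. It had 17.3, 18.01 and 16.7 in CELF6-OE and 16.8, 15.8 and 14.3 in Control. Only CELF6-OE replicate 3 and Control replicate 1 overlapped, the means were 17.3 ± 0.660 and 15.6 ± 1.27 (SD, n = 3 each), and the log2 fold change was 0.13 (SE 0.065).

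The ferritin mRNAs dwarfed the rest. FTL (ENSG00000087086.13, chr19:48965309-48966879, plus strand), the chain that nucleates the iron core, ranked 2 by mean FPKM among the 11208 genes whose mean was 1 or more. Its FPKM was 14945, 12551 and 13846 in CELF6-OE and 12285, 12753 and 13250 in Control, with means of 13781 ± 1198 and 12762 ± 482 (SD, n = 3 each) and a log2 fold change of 0.08 (SE 0.087). FTH1 (ENSG00000167996.15, chr11:61959718-61967634, minus strand), the chain with ferroxidase activity, ranked 14. It had 3572, 3412 and 3649 in CELF6-OE and 3434, 3803 and 3839 in Control, with means of 3544 ± 121 and 3692 ± 224 (SD, n = 3 each) and a log2 fold change of -0.09 (SE 0.079). Both genes overlapped between the groups. Together they took 3.64%, 3.16% and 3.45% of all FPKM in CELF6-OE and 3.15%, 3.26% and 3.30% in Control. The FPKM of FTL divided by that of FTH1 was 4.18, 3.68 and 3.79 in CELF6-OE (3.89 ± 0.265, SD, n = 3) and 3.58, 3.35 and 3.45 in Control (3.46 ± 0.112, SD, n = 3). All CELF6-OE ratios were above all Control ratios, and the difference was not tested. Ratios of TFRC to FTH1, SLC39A14 to SLC11A2 and SLC40A1 to TFRC were also computed and overlapped between the groups. How often the ratio of any pair of genes separates the groups was not counted, so nothing is read from it.

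Both ferritin genes have many processed copies in the genome, and counting of unique reads can split or drop their reads. The 17 FTH1 pseudogenes in the table summed to 485 to 751 counts per library, 0.198% to 0.357% of the FTH1 count, and FTH1P10 was the most abundant at a mean FPKM of 15.0. The 5 FTL pseudogenes summed to 17 to 41 counts, 0.00416% to 0.00929% of the FTL count. FTLP14 led them at a mean FPKM of 0.937. Reads that fit a gene and a copy equally well were left out before deposit, so the ferritin levels are uncertain by an amount these files do not show.

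SLC40A1 (ENSG00000138449.10, chr2:189560590-189583758, minus strand) encodes the only known cellular iron exporter of mammals. Its FPKM was 2.11, 1.57 and 2.38 in CELF6-OE and 3.87, 2.67 and 1.90 in Control, and its counts were 264, 200 and 289 against 505, 362 and 258. Control replicates 1 and 2 were above every CELF6-OE library, and Control replicate 3 was below 2 of them. The means were 2.02 ± 0.412 and 2.81 ± 0.993 (SD, n = 3 each), with a log2 fold change of -0.50 (SE 0.218). Without Control replicate 3 the log2 fold change was -0.70 (SE 0.171). Without Control replicate 1 it was -0.24 (SE 0.168).

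**Figure D1:**
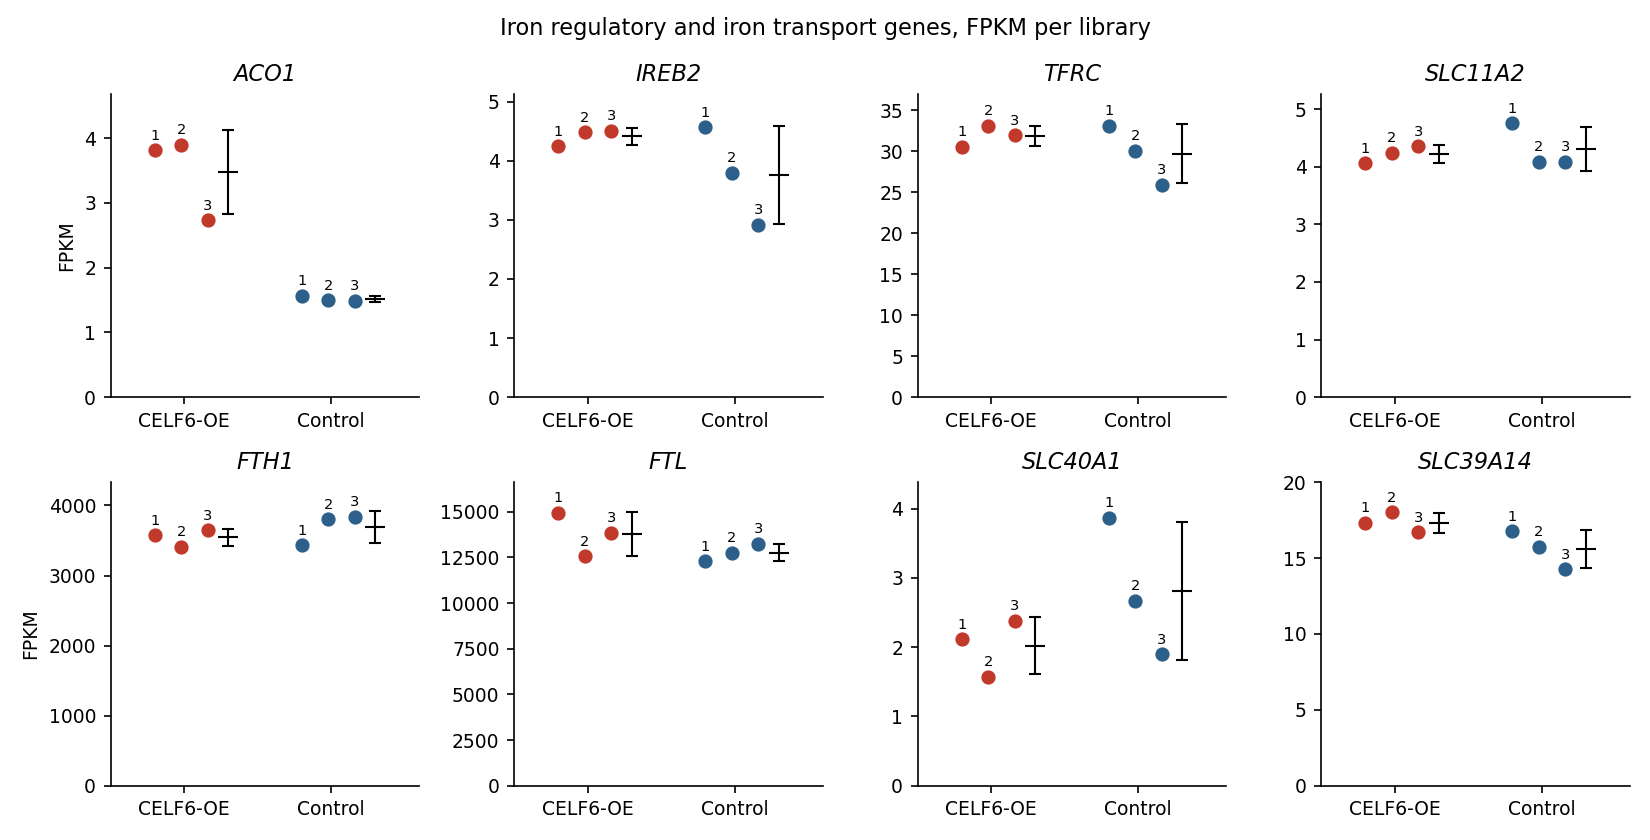
FPKM of the 8 genes in each library (points, numbered by replicate), with the mean and SD of the 3 libraries of a group beside them; each panel has its own linear axis from 0. Only ACO1, chosen for its higher level, separates the groups, with Control libraries at 1.49 to 1.57 and CELF6-OE libraries at 2.73 to 3.9. Of all genes tested, 37.9% separate the groups.

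By the rule in the study's methods for a differentially expressed gene (DEG), p under 0.01 with a change of 1.5 times or more up or down, 1 of the 8 genes was called, ACO1. Of the 15847 genes tested, 7.27% were DEGs, 1.36% higher and 5.91% lower in CELF6-OE. The study's results text sets an adjusted p under 0.05 in place of that p, which called 1.35% of all genes higher and 5.82% lower, and again ACO1 of the 8. The FPKM values of the groups did not overlap for 37.9% of them. ACO1 was chosen from this contrast, so nothing is read from these counts. The median log2 fold change of the 8 genes was 0.08, beside 0.01 over all genes tested.

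Levels fell into clear steps. In every library FTL was above FTH1, FTH1 above TFRC and TFRC above SLC39A14, and SLC39A14 was above the remaining 4 genes. SLC11A2 and IREB2, at means over the 6 libraries of 4.26 and 4.09 FPKM, had overlapping ranges within both groups. Library by library IREB2 was the higher in all 3 CELF6-OE libraries and SLC11A2 in all 3 Control libraries. ACO1 (2.50) and SLC40A1 (2.42) also changed places. ACO1 was the lowest of the 8 in each Control library, whereas SLC40A1 was the lowest in each CELF6-OE library.

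The genes differed in how much replicates of a group disagreed. On the log2 scale, the highest over the lowest FPKM of the Control libraries was 0.08 for ACO1, a spread wider than that of only 13.1% of the 11208 genes with a mean FPKM of 1 or more. In CELF6-OE the same measure was 0.51 for ACO1, wider than in 94.6% of those genes. IREB2 went the other way, at 0.65 in Control (93.5%) and 0.09 in CELF6-OE (24.8%). SLC40A1 had a wide spread in both, at 1.03 in Control (98.7%) and 0.60 in CELF6-OE (96.2%). The medians over all these genes were 0.21 in Control and 0.14 in CELF6-OE. FTH1 (0.16 and 0.10) lay below both, SLC11A2 (0.22 and 0.10), SLC39A14 (0.24 and 0.11) and TFRC (0.35 and 0.11) lay above the first and below the other, and FTL (0.11 and 0.25) lay below the first and above the other.

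**Figure D2:**
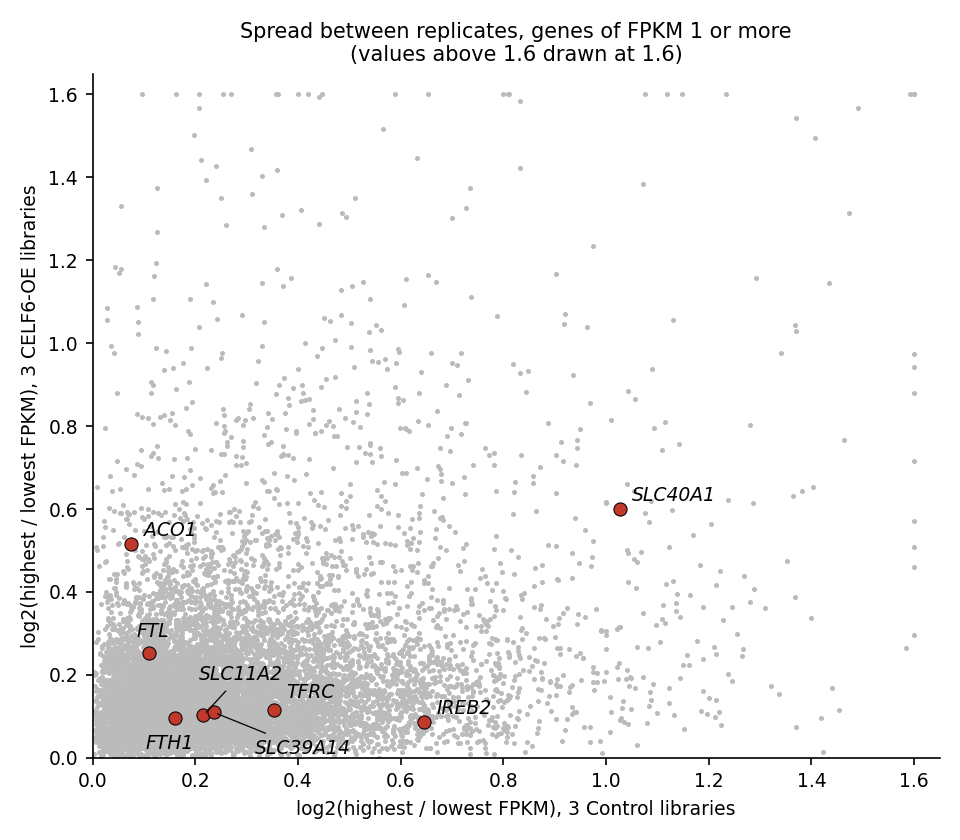
Spread between replicates, as log2 of the highest over the lowest FPKM, in the 3 Control libraries (horizontal) and the 3 CELF6-OE libraries (vertical), for genes of mean FPKM 1 or more (grey) and the 8 genes (red). ACO1 sits at 0.08 and 0.51, IREB2 at 0.65 and 0.09, and SLC40A1 at 1.03 and 0.60.

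The Control libraries also had a shared order. ACO1, IREB2, TFRC, SLC40A1 and SLC39A14 were highest in Control replicate 1 and lowest in Control replicate 3, as were 40.8% of the 11208 genes. FTH1 and FTL had the reverse order, as did 26.1%. The order of the iron genes in Control was thus a common one, and the Control values of IREB2, TFRC and SLC40A1 run along it.

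ACO1 ends 532 bp from RIGI (chr9:32455302-32526208, minus strand; DDX58 in the tables), and their 3′ ends face each other. RIGI encodes a cytosolic sensor of viral RNA induced by interferon. Its FPKM was 16.4, 16.4 and 22.6 in CELF6-OE and 44.6, 39.2 and 31.7 in Control, with no overlap. It fell by 1.09 on the log2 scale (SE 0.132, adjusted p = 0.000248, quasi-likelihood test of edgeR, Benjamini-Hochberg adjustment). RIGI and ACO1 thus moved in opposite directions, and in CELF6-OE replicate 3 both stood nearer to Control than in replicates 1 and 2. This was not particular to the locus. Among the epithelial markers, replicate 3 was also nearest to Control in CDH1 (2.98, 2.80 and 4.95 in CELF6-OE) and KRT8, but not in KRT19. The share of all genes with this pattern was not counted. No annotated gene overlapped ACO1, and the nearest coding gene on its other side, LINGO2, lay 3171001 bp away and had at most 1 count in any library. The kit keeps the strand, but the strand setting of the counting is not given in the sources used here, so reads running past a 3′ end into the neighbour cannot be told apart.

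**Figure D3:**
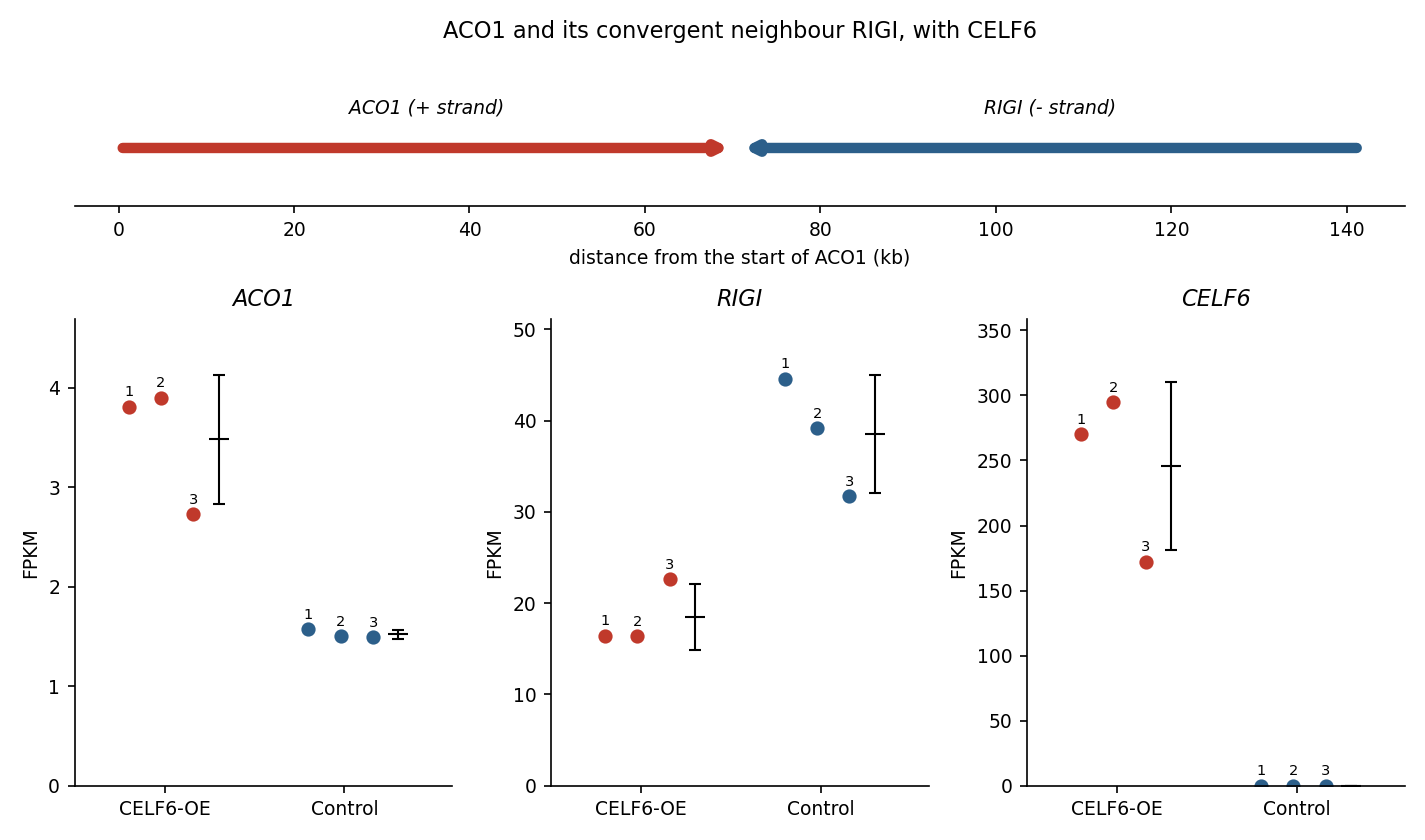
Above, ACO1 and RIGI drawn to scale by distance from the start of ACO1 in kb, with arrows in the direction of transcription. Below, FPKM per library (points, numbered by replicate) with mean and SD of 3 libraries for ACO1, RIGI and CELF6. In CELF6-OE replicate 3, CELF6 was at 172 FPKM against 270 and 295 in replicates 1 and 2. ACO1 and RIGI were both nearer to Control in that library, as were genes elsewhere such as CDH1.

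Of all genes, those whose log2(FPKM + 1) followed ACO1 most closely over the 6 libraries were ODC1 (Pearson r = 0.9986), the rate-limiting enzyme of polyamine synthesis, RP11-800A3.4 (0.9976), ITGB1BP1 (0.9974), an integrin-binding adaptor, the pseudogene KLKP1 (0.9970) and ARPC1A (0.9963), a subunit of the actin-nucleating Arp2/3 complex. ODC1 had 108, 110 and 90.1 FPKM in CELF6-OE and 65.0, 62.3 and 63.8 in Control, the same low replicate 3 and level Control libraries as ACO1. With 6 libraries in 2 groups and 15846 genes ranked, values this high describe the shape only. The 7 other iron genes followed ACO1 less closely, from r = 0.782 for SLC39A14 (rank 2712) and 0.536 for IREB2 down to -0.547 for FTH1 and -0.582 for SLC40A1.

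CELF proteins are known to bind U- and G-rich RNA that holds the triplet UGU. The 3′UTR of the ACO1 canonical transcript was long, at 4658 bases beside a median of 1101 over 18876 3′UTRs of 50 bases or more. Per base it was not rich in this triplet, and the number of triplets, which rises with length, was not compared. It had TGT at a density (matches as a percent of its bases, transcript strand, overlaps counted) of 1.95, beside a median of 2.23, above that of 36.0% of 3′UTRs. IREB2 (2.93, 82.1%), SLC40A1 (2.87, 80.0%) and TFRC (2.63, 70.7%) were denser. FTH1 (2.26), SLC39A14 (2.27) and SLC11A2 (2.19) lay near the median, and the FTL 3′UTR of 144 bases held none. A run of 4 TG dinucleotides, found in 14.4% of 3′UTRs, was in none of the 8. These counts describe letters and say nothing of where CELF6 was bound.

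Beyond the 8 genes, 104 genes of iron and heme handling were listed by role, of which 99 were in the count table and 92 passed the filter. Among them edgeR called 0 DEGs higher in CELF6-OE and 4 (4.35%) lower, beside 1.36% and 5.91% of all genes. DESeq2 and limma-voom also called 0 higher, and at an unadjusted p under 0.05 by edgeR 13 of the 92 were higher and 19 lower, where 14.8% and 18.0% of all genes were. At an adjusted p under 0.05 without a fold threshold, 6 (6.52%) were higher and 12 (13%) lower, beside 6.47% and 11.5% of all genes. The shares lay near the background in each direction, and the median log2 fold change was -0.04. Scaling by library size only or by upper quartile gave 10 higher and 10 lower at the adjusted p. The count of higher genes was 1 without Control replicate 2 or without any one CELF6-OE replicate, and 11 without Control replicate 3. In the 4 cases with 1 the log2 fold changes stayed close, at 0.22 to 0.25 for CS (0.24 with all libraries), 0.23 to 0.27 for FECH (0.25) and 0.28 to 0.34 for FLVCR1 (0.30). The count of lower genes was 6 without CELF6-OE replicate 2 and 7 without Control replicate 2. The share of all genes called in these alternative settings is not given beside them. Their counts are therefore not read as changes particular to the iron genes.

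**Figure D4:**
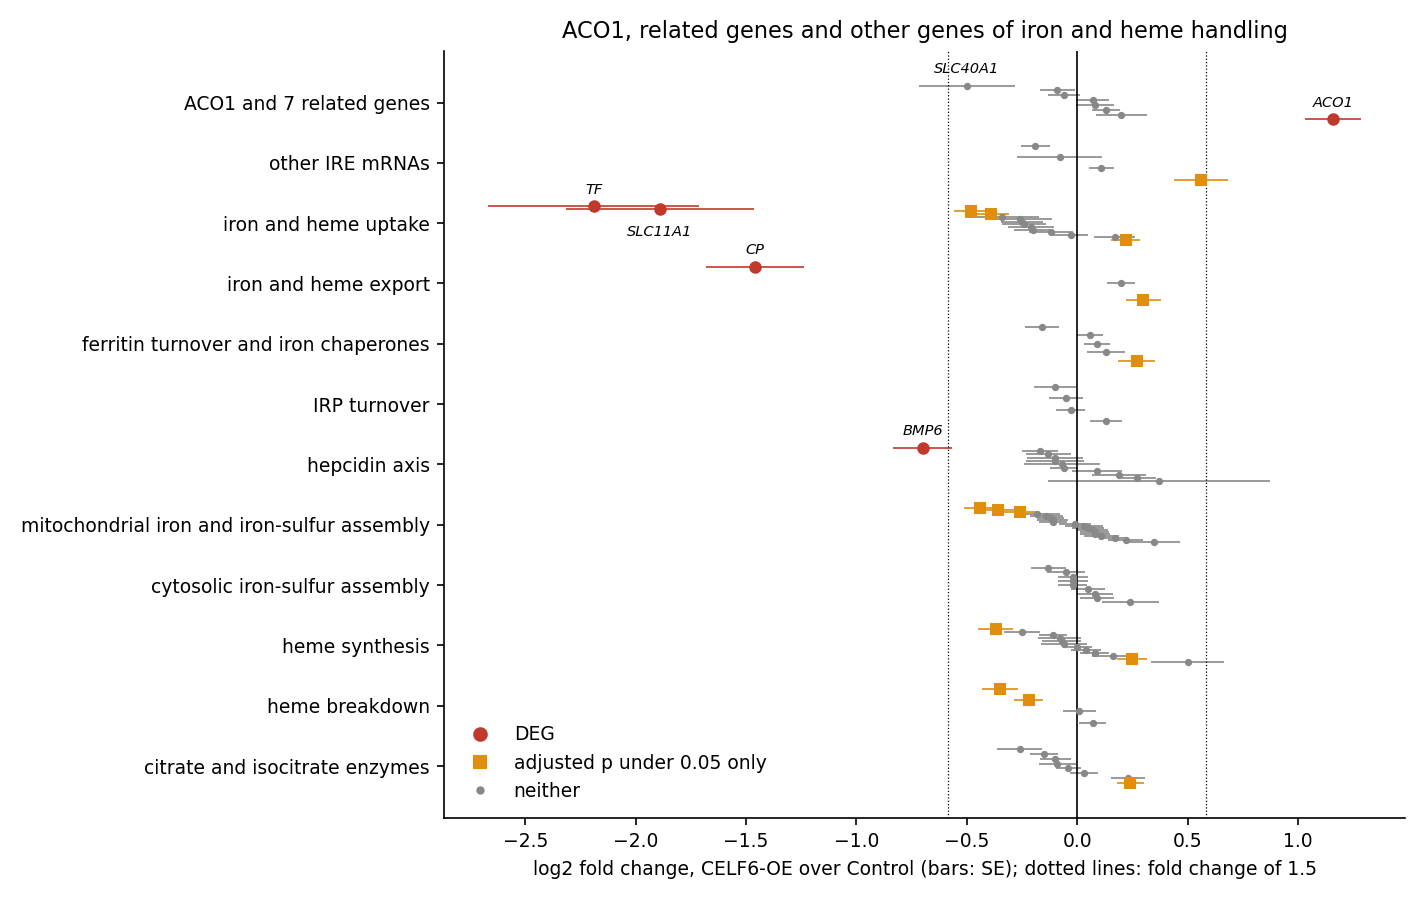
Log2 fold change of each tested gene (CELF6-OE over Control, bars are SE) for ACO1 with its 7 related genes and for the 11 lists; red circles are DEGs, orange squares have an adjusted p under 0.05 only, grey points neither, and dotted lines mark a fold change of 1.5. ACO1 at 1.16 is the only DEG to the right, and the 4 DEGs to the left are TF, SLC11A1, CP and BMP6.

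All 4 of these DEGs were lower in CELF6-OE, and their groups did not overlap, as was so for 37.9% of all genes tested. TF encodes transferrin, the iron carrier of blood plasma and the ligand of the receptor that TFRC encodes. Its FPKM was 0.58, 0.19 and 0.66 in CELF6-OE and 3.82, 1.69 and 0.97 in Control, and it fell by 2.19 on the log2 scale (SE 0.479, adjusted p = 0.00980). CP encodes ceruloplasmin, the copper ferroxidase that oxidizes the iron ferroportin releases. It had 5.51, 4.18 and 6.32 in CELF6-OE and 20.2, 14.2 and 9.22 in Control, and fell by 1.46 on the log2 scale (SE 0.223, adjusted p = 0.00118). BMP6, the signal that induces the iron hormone hepcidin in liver, had 1.53, 1.46 and 1.88 against 2.81, 2.74 and 2.23, and fell by 0.70 on the log2 scale (SE 0.135, adjusted p = 0.00489). SLC11A1, the phagocyte paralog of SLC11A2, fell by 1.89 on the log2 scale (SE 0.426, adjusted p = 0.0114) on only 3, 3 and 6 counts against 19, 17 and 12. In all 4 genes Control replicate 3 was the lowest Control library, and CELF6-OE replicate 3 was the highest CELF6-OE library. None of the 4 is on the list of IRE mRNAs. SLC11A1 lost its adjusted call in 3 of 16 alternatives, among them leaving out CELF6-OE replicate 1 or 2, and TF in 1.

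**Figure D5:**
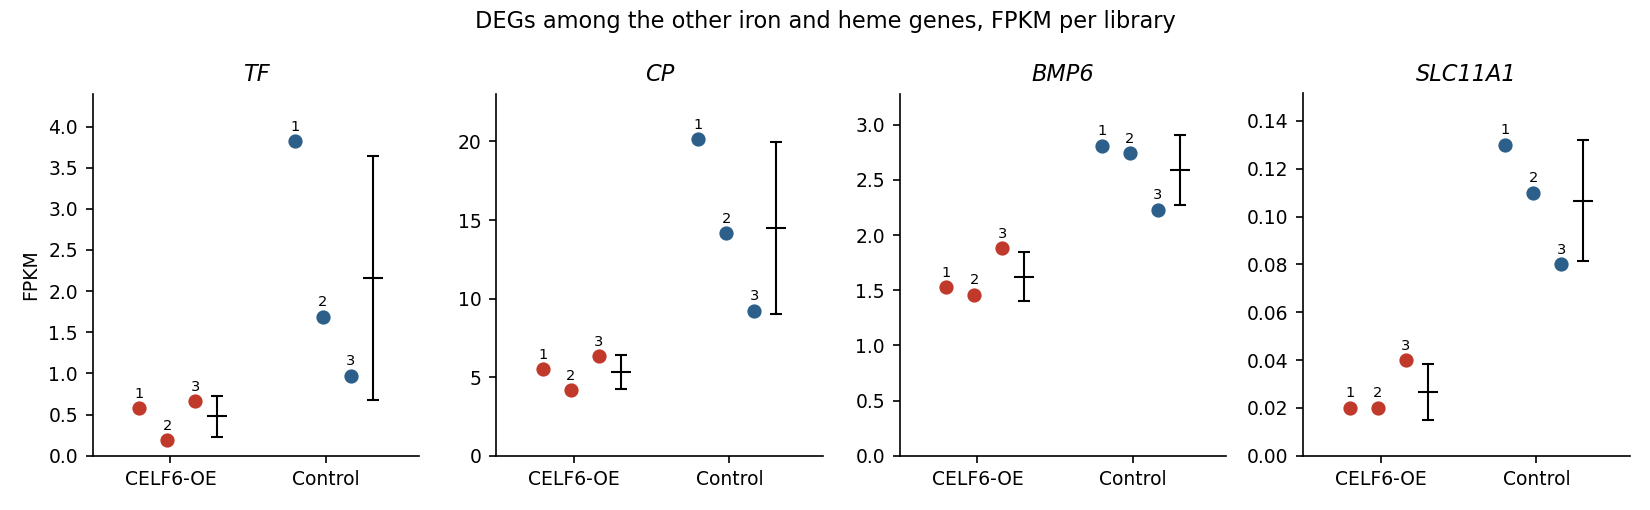
FPKM per library (points, numbered by replicate) with mean and SD of 3 libraries for the 4 DEGs among the other iron and heme genes; each panel has its own linear axis from 0. In each gene all 3 CELF6-OE libraries lie below all 3 Control libraries, and Control replicate 3 is the lowest Control library.

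Of the 5 other IRE mRNAs listed, 4 were tested. CDC42BPA, a kinase whose mRNA is listed among IRE mRNAs although no match was found in its UTRs, rose by 0.56 on the log2 scale (SE 0.123, adjusted p = 0.00978). EPAS1 and CDC14A did not pass the test. The mRNA level of ALAS2, the erythroid enzyme of heme synthesis, was not analysed here, and its 5′UTR held a 5-pair match.

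The counts per list that follow stand beside 6.47% of all genes tested higher and 11.5% lower at an adjusted p under 0.05. The lists are small, and nothing is read from the count in any of them. Among the 14 tested genes of iron and heme uptake, 2 more were lower and 1 was higher, and the changes from here on are all on the log2 scale. STEAP1, a metalloreductase family member, fell by 0.39 (adjusted p = 0.00729) and MELTF (melanotransferrin) fell by 0.48 (adjusted p = 0.00196), while STEAP3, the ferric reductase of the transferrin cycle, rose by 0.22 (adjusted p = 0.0352). Of the 3 tested export genes, FLVCR1, a transporter first described as a heme exporter, rose by 0.30 (adjusted p = 0.0254). Of the 5 genes of ferritin turnover and iron chaperones, HERC2, a ubiquitin ligase, rose by 0.27 (adjusted p = 0.0459). Of the 4 genes of IRP turnover (FBXL5, which targets IRP2 for degradation, and its partners SKP1, CUL1 and RBX1) and the 9 genes of cytosolic iron-sulfur assembly, 0 passed by edgeR, DESeq2 or limma-voom, and 0 had an unadjusted p under 0.05 by edgeR. Of all genes tested, 14.8% were higher and 18.0% lower at that unadjusted p. Of the 11 tested genes of the hepcidin axis, BMP6 alone passed.

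Of 18 genes of mitochondrial iron and iron-sulfur assembly, 3 (16.7%) were lower, beside 11.5% of all genes tested. FDXR, ferredoxin reductase, fell by 0.44 (adjusted p = 0.00222), SLC25A28, a mitochondrial iron importer, fell by 0.36 (adjusted p = 0.0109), and HSCB, a co-chaperone of cluster transfer, fell by 0.26 (adjusted p = 0.0490). In heme synthesis (12 genes), ABCB6 fell by 0.37 (adjusted p = 0.00859) and FECH, which inserts iron into the ring, rose by 0.25 (adjusted p = 0.0271). In heme breakdown (4 genes) both biliverdin reductases were lower, with BLVRA falling by 0.22 (adjusted p = 0.0477) and BLVRB by 0.35 (adjusted p = 0.0132). Of the 8 genes listed for the handling of citrate and isocitrate, CS (citrate synthase) rose by 0.24 (adjusted p = 0.0218). Over all 16 alternatives CP, BMP6, CDC42BPA, FDXR and MELTF kept an adjusted p under 0.05. STEAP3, HERC2, BLVRA and HSCB had it in 9, 8, 6 and 6 of them, and FLVCR1, FECH and CS in 10, 11 and 11.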

How the data were processed

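RNA-seq libraries of 3 CELF6-OE and 3 Control cultures of A549 were analysed, grouped by the sample labels. Per the methods and labels, poly(A) RNA was made into stranded paired-end libraries, and reads were trimmed, aligned to GRCh38 with TopHat2 and kept where they had a unique location. The authors deposited raw counts per gene and FPKM values, which scale a gene's fragments by transcript length and by mapped fragments. The counting tool, its strand setting and the annotation are not given in the sources used here.

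Counts were scaled by TMM and tested with edgeR 4.0.16 (quasi-likelihood test, R 4.3.3) on 15847 genes kept by filterByExpr (minimum count 10), with Benjamini-Hochberg adjustment over all of them. The prior count for log2 fold changes was 0.125. Each SE was the absolute log2 fold change divided by the square root of the quasi-likelihood F statistic. It is thus derived from the same test and not independent of it. The prior degrees of freedom were 7.15 and infinite without the filter. A DEG had p under 0.01 with a change of 1.5 times or more. FPKM served for levels, and log2(FPKM + 1) for correlations. Replicates are called biological in the methods. Each p-value sets the difference between the groups against the spread between these libraries, moderated across genes. Library totals of 33748328 to 37920700 counts set the counting error, and ACO1 had 444 counts or more in each.

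Alternatives were RLE, library-size and upper-quartile scaling, no filter, DESeq2 1.42.0, limma-voom and limma 3.58.1 on FPKM, removal of CELF6 counts, a threshold of 2 times for DEGs, a block for the replicate number, and the removal of single libraries. Scripts were tested on simulated data. The 8 genes and all lists were chosen with earlier results of these data known. Named besides the 8 were every DEG of the iron and heme lists and up to 10 further genes per direction at an adjusted p under 0.05, the neighbours of ACO1, the leading ferritin pseudogenes, the 5 genes most correlated with ACO1, and CELF6. Of the gene IDs, 97.1% were in GENCODE v44, which gave positions and transcript sequences. Of the genes looked up, 2 are not reported here.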

Additional observations from a re-analysis of the deposited data

How the results depend on the processing

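ACO1 had a log2 fold change of 1.08 to 1.31 when single libraries were left out and 0.82 by limma on log2(FPKM + 1), where the pseudocount shrinks low genes by construction. The signs of the other 7 genes did not turn in any of the 16 alternatives, but TFRC reached 0.00 without Control replicate 3. At their smallest, FTL was 0.01, SLC11A2 -0.01 and FTH1 -0.04. The alternatives reuse the same libraries, so an unchanged sign is not read as a direction. With one library left out, the DEGs among the 8 genes numbered 1 to 2, ACO1 and, without Control replicate 3, SLC40A1. These calls use the contrast that chose ACO1, so nothing is read from them. IREB2 ranged from 0.07 without Control replicate 3 to 0.33 without Control replicate 1. Among the other iron and heme genes, DEGs higher in CELF6-OE numbered 1 by library size only (CDC42BPA) and 0 to 2 over single libraries left out (CDC42BPA and ABCB10). DEGs lower in CELF6-OE numbered 2 by limma on log2(FPKM + 1). At an adjusted p under 0.05, the higher genes numbered 10 by library size only and by upper quartile, and 1 to 11 over single libraries left out. The lower genes numbered 6 to 17 over single libraries left out. Beyond these constructions, the cause of the changes was not tested. With the replicate number as a block, the higher genes numbered 2, the lower genes 10, and the ACO1 log2 fold change was 1.15. These counts of iron and heme genes stand without the share of all genes called in the same setting. They are therefore not read as changes particular to iron genes. Replicates with the same number did not deviate together (r of -0.01, -0.02 and -0.07 over 15847 genes), so the numbers were not taken to pair the libraries. Scaling moved the median log2 fold change of all genes to at most 0.049. Swapping the p of the DEG rule for an adjusted p under 0.05, an alternative added after seeing the data, left 1 DEG among the 8 genes and 0 higher and 4 lower among the others. SLC11A1, at 3 to 19 counts per library, is limited by depth.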
